A study of Mus musculus with 28 samples.

Results

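A set of 9 mitotic genes was followed through the reprogramming of mouse fibroblasts to induced pluripotent stem (iPS) cells. They were the spindle checkpoint genes Bub1, Bub1b, Ttk and Zwilch, the kinetochore motor gene Cenpe, the mitotic kinase genes Aurka, Aurkb and Plk1, and Cdc20, the target of the checkpoint. The set was given by name and not chosen by a cut-off on the arrays, but with earlier results of these data known. Counts of the 9 against all genes are therefore given as a description. All 9 were measured, among 11807 genes with a single symbol on 24 arrays and among 12394 such genes on 4 arrays of another design. Gene expression was measured with microarrays hybridized with biotin-labelled RNA samples, and the values are log2 signals that the authors normalized with RMA.

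The strain of the 24-array samples was C57BL6/129, and none is given for the 4 EpCAM samples. Mouse embryonic fibroblasts (MEFs) were grown from embryos of day 13.5 that held the doxycycline-inducible OKSM cassette (Oct4, Klf4, Sox2 and c-Myc) and the Rosa26-M2rtTA transactivator, each in 1 copy (het/het) or in 2 copies (ho/ho). The labels do not say which genotype each array had. By the growth protocol the MEFs carried these alleles too, so no group without the cassette was included. Doxycycline was given in embryonic stem cell medium with 15% serum and LIF. Groups were iPS cells (SSEA1+ Thy1-negative GFP+, 3 arrays named 1-3, 1-5 and 1-6, time not given), day 12 SSEA1+ cells that were also positive for GFP (1 array), SSEA1+ Thy1-negative GFP-negative cells of days 3, 6, 9 and 12, cells negative for both surface markers on the same days (here Thy1-), Thy1+ cells on the same days, and MEFs of day 0 (2 arrays). Each sorted fraction had 2 arrays on days 3 and 6, named M2 and M3 like the MEF arrays, and 1 array, M2, on days 9 and 12. SSEA1 is a carbohydrate antigen of mouse pluripotent cells and Thy1 a surface protein of fibroblasts. The gene that drove GFP is not named in the labels. Feeder cells were removed from the iPS cultures by preplating. In a separate experiment on the other array design, day 6 SSEA1+ Thy1-negative cells were split into EpCAM+ and EpCAM- cells, with 2 arrays each. Whether M2 and M3, or the 3 iPS arrays, stand for different animals or cultures is not stated. The p-values therefore describe array-to-array spread, part or all of which may be technical, and precision is limited by the number of arrays.

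In mitosis the spindle checkpoint delays the separation of chromosomes until every kinetochore is attached to microtubules. The kinase TTK (also called MPS1) starts the signal, BUB1 and BUBR1 (the product of Bub1b) build it at the kinetochore, and the RZZ complex that holds ZWILCH recruits further checkpoint proteins. The checkpoint keeps CDC20 from activating the anaphase-promoting complex. Aurora A, Aurora B and PLK1 drive spindle assembly, the correction of attachments and entry into and exit from mitosis. Transcripts of these genes accumulate in the late phases of the cell cycle, so in a bulk sample they mark dividing cells. A larger share of dividing cells and more RNA of these genes per cell cannot be told apart here.

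Promoter sequences from RefSeq (mouse build GRCm38.p6) were at hand for 7 of the 9 genes, Aurkb and Zwilch being the others. They were searched on both strands for 3 motifs known from cell cycle genes, over the 250 bases before the start that the promoter table uses (the first listed for a gene). That start lies inside the longest annotated extent of 3 genes, so that 9 of the 250 bases in Bub1b, 38 in Ttk and all 250 in Aurka are within the gene. The other 4 windows lie wholly before it. The first was the CCAAT box. The second was the cell cycle homology region (CHR), searched as TTTGAA. The spelling TTCGAA of the CHR was searched as well. The last was an E2F site, searched as GCGGGAA. None of the matches in the 7 promoters shared bases with another. CCAAT was found in 7 of 7 promoters, against 34.5% of 27025 promoters, 1 per gene and taken in the same way. In 6 of the 7, all but Aurka, a CCAAT lay before the annotated extent of the gene, which was not checked for the 27025. A CHR was found in 2 of 7, Bub1b and Cdc20, against 17.4% of all, and the E2F letters were found in 0 of 7, against 3.8% of all. Within the nearest 150 bases CCAAT was again in 7 of 7, against 25.3% of all. The 4 windows that follow end at the base before the annotated gene start, read 5′ to 3′ on the gene's own strand, and are shown because the genes move together. Capitals mark the CCAAT box, which reads ATTGG where it lies on the opposite strand, and the CHR. The Cdc20 window is at chr4:118437344-118437493 (minus strand), that of Plk1 at chr7:122159285-122159434 (plus strand), that of Bub1 at chr2:127831860-127832009 (minus strand) and that of Cenpe at chr3:135212413-135212562 (plus strand).
Cdc20: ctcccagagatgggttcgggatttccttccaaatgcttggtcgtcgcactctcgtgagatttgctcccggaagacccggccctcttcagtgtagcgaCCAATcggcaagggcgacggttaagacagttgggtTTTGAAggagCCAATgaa
Plk1: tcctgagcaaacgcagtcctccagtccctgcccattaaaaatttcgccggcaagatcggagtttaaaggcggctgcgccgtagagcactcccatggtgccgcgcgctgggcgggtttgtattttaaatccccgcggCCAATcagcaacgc
Bub1: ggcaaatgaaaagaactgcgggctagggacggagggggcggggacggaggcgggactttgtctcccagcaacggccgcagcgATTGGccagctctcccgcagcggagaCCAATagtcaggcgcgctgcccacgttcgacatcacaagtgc
Cenpe: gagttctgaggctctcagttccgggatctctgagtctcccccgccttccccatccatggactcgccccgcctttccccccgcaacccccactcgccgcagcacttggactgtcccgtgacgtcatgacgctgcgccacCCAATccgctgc
The CCAAT box nearest to the gene start began 8 bases upstream in Cdc20, 14 in Plk1, 42 in Bub1 and 12 in Cenpe. The single CHR among these 4 windows began 18 bases upstream of the Cdc20 start, between its CCAAT boxes, which began 53 and 8 bases upstream. A match of letters is a description and does not show that a factor binds there.

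The sorting markers were checked first. The Thy1 transcript ranged from 6.10 to 6.87 (log2 signal) in iPS cells, against 11.79 and 11.80 in MEFs, and on each day it was higher on the Thy1+ arrays than on the SSEA1+ arrays. The mean of 7 pluripotency markers was 11.26 to 11.55 in iPS cells, against 4.46 and 4.51 in MEFs. The mean of 6 macrophage markers lay between 4.49 and 5.34 on all 24 arrays. Within that list the log2 difference of iPS cells from MEFs was 3.55 for Cd68 and -1.92 for Lyz2. For Ptprc, Csf1r, Tyrobp and Fcer1g it lay between -0.41 and 0.17. The day 6 Thy1+ M2 array stood apart. Its difference between the 3′ and 5′ control probe sets of Gapdh (log2), a measure that grows with RNA degradation, was 1.78, against 0.934 on M3, and the spread of the 9 genes in that group was an SD of 0.653 (root mean square over the genes), against 0.18 in iPS cells. Some of the results that rest on it are given with and without it, and the others only with it. It also enters the pooled spread used for every comparison on the 24 arrays.

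The same order of groups held for all 9 genes at its ends. In every gene the mean level was highest in iPS cells and next highest in day 12 GFP+ cells, MEFs were at place 12 of 15 groups, and day 12 Thy1+ cells were lowest. The third to the eighth place were shared out among the day 3 fractions and the SSEA1+ cells of days 6, 9 and 12, in an order that changed from gene to gene. The median of the 9 differences from MEFs in SSEA1+ cells was 2.27 log2 units on day 3, and it was 1.86, 2.20 and 2.27 on the 3 later days. In Thy1- cells it was 1.89, 0.70, 1.52 and 1.08 on the same days. In Thy1+ cells the median stood at 1.79, -0.69, -0.60 and -1.72, so that it lay below MEFs from day 6. GFP+ cells stood at 2.85 and iPS cells at 3.36. The plot of signal by group shows the 3 courses for each gene.

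**Figure D1:**
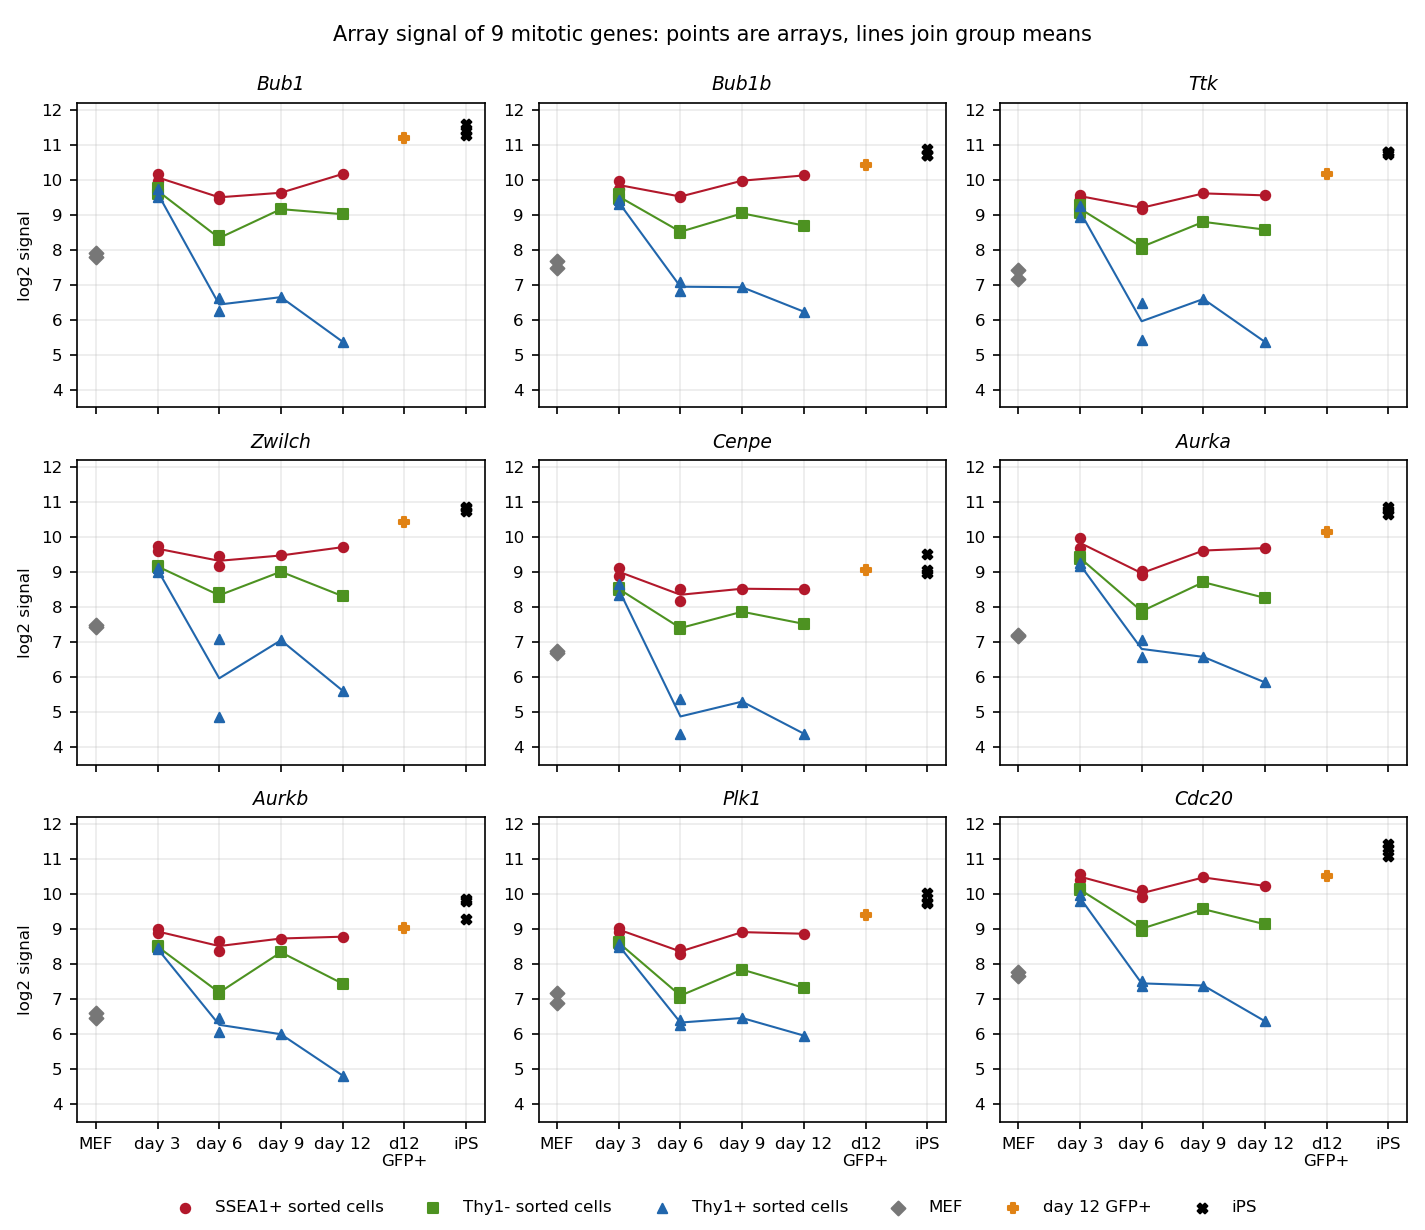
Log2 signal (y axis) of each gene on every one of the 24 arrays, by group (x axis: MEF, days 3 to 12 of sorted fractions, day 12 GFP+ cells and iPS cells). Points are arrays and lines join group means. In all 9 panels SSEA1+ cells stay above MEFs. In the group means Thy1+ cells are above MEFs on day 3 and below them from day 6, and iPS cells are highest.

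Bub1 and Bub1b encode a kinase and its relative, which carry the checkpoint signal at the kinetochore. Bub1 had a log2 signal of 11.27, 11.60 and 11.41 on the iPS arrays (1-5, 1-6 and 1-3 here and for the other genes) and 11.20 on the GFP+ array, against 7.91 and 7.80 on the MEF arrays. In SSEA1+ cells its signal was 10.18 and 9.97 on day 3, 9.55 and 9.46 on day 6, 9.63 on day 9 and 10.17 on day 12. All SSEA1+ arrays were thus above both MEF arrays and below all iPS arrays. Thy1+ cells had a Bub1 signal of 9.51 and 9.73 on day 3, 6.25 and 6.63 on day 6, 6.65 on day 9 and 5.38 on day 12. From day 6 Thy1- cells lay between the other fractions, and over the 4 days they had 9.60 and 9.78, 8.28 and 8.40, 9.17 and 9.02. Bub1b had 10.72, 10.70 and 10.87 on the iPS arrays, against 7.69 and 7.48 in MEFs. Its lowest level was 6.24, on the day 12 Thy1+ array, and its day 6 Thy1+ arrays had 6.81 and 7.08, both below the MEF arrays. A dimmer second probe set of Bub1 (signal 3.34 to 6.47) had the same direction as the first in 18 of 22 comparisons, and the 4 exceptions are given where they fall.

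Ttk encodes the kinase that starts the checkpoint, and Zwilch a subunit of the RZZ complex. Ttk had a log2 signal of 10.79, 10.74 and 10.79 on the iPS arrays and 10.18 on the GFP+ array, against 7.42 and 7.16 on the MEF arrays. In Thy1+ cells Ttk had 8.95 and 9.25 on day 3, 5.44 and 6.48 on day 6, 6.60 on day 9 and 5.37 on day 12. The lower of the day 6 values was that of the M2 array that stood apart. Zwilch showed the widest gap of that pair, at 4.86 on M2 and 7.08 on M3, and it had 7.06 on day 9 and 5.62 on day 12 in the same fraction. On day 3 Zwilch had 9.75 and 9.60 on the SSEA1+ arrays, 9.17 and 9.16 on the Thy1- arrays and 9.01 and 9.13 on the Thy1+ arrays. iPS arrays held 10.76, 10.87 and 10.84 for Zwilch, against 7.44 and 7.496 in MEFs.

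Cenpe encodes a kinesin that moves chromosomes to the spindle equator. Its log2 signal was 8.98, 9.53 and 9.06 on the iPS arrays, against 6.69 and 6.75 on the MEF arrays. Day 3 SSEA1+ arrays had 9.13 and 8.90, so they overlapped the iPS arrays, which no other member did. The share of all genes without such overlap was not counted. In Thy1+ cells Cenpe had 8.36 and 8.66 on day 3, 4.38 and 5.38 on day 6, 5.30 on day 9 and 4.39 on day 12. Levels after day 3 in that fraction were below both MEF arrays.

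Aurka encodes Aurora A, which acts at spindle poles, and Aurkb encodes Aurora B, the kinase of the chromosomal passenger complex. Aurka had a log2 signal of 10.86, 10.68 and 10.78 on the iPS arrays and 10.15 on the GFP+ array, against 7.19 and 7.17 on the MEF arrays. SSEA1+ cells had an Aurka signal of 9.99 and 9.69 on day 3, 9.03 and 8.92 on day 6, 9.62 on day 9 and 9.69 on day 12, with the lowest values on day 6. Thy1+ cells had 9.18 and 9.25, 7.05 and 6.57, 6.58 and 5.85. Here the M2 array of day 6 was the higher of the pair, as it was for Aurkb and Plk1. Aurkb had 9.30, 9.82 and 9.87 on the iPS arrays, against 6.62 and 6.46 on the MEF arrays. Its lowest signal was 4.83, on the day 12 Thy1+ array, and a second probe set of Aurkb had the same direction as the first in all 22 comparisons.

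Plk1 encodes the polo-like kinase that acts from mitotic entry to cytokinesis, and Cdc20 the activator of the anaphase-promoting complex. Plk1 had a log2 signal of 10.04, 9.74 and 9.78 on the iPS arrays, against 7.17 and 6.89 on the MEF arrays. In Thy1- cells Plk1 had 8.61 and 8.63 on day 3, 7.18 and 7.04 on day 6, 7.85 on day 9 and 7.34 at the last time, day 12. The day 6 values of Plk1 in these cells were thus at the level of the MEF arrays. Cdc20 had 11.45, 11.10 and 11.32 on the iPS arrays, against 7.79 and 7.68 on the MEF arrays. In SSEA1+ cells it had 10.59 and 10.43 on day 3, 9.93 and 10.14 on day 6, 10.49 on day 9 and 10.24 on day 12. The Cdc20 signal of Thy1+ cells was 9.83 and 9.99, 7.38 and 7.54, 7.40 and 6.38, where day 3 was above the MEF arrays and all later arrays were below them.

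Between iPS cells and MEFs, the end points of reprogramming, all 9 genes were higher in iPS cells. Aurka was 12.0-fold higher (log2 difference 3.59, SE 0.14, adjusted p = 6.37e-11) and Bub1 was 11.9-fold higher (3.58, SE 0.14, adjusted p = 6.98e-11). The smallest difference was that of Cenpe, 5.55-fold (2.47, SE 0.24, adjusted p = 5.55e-07). A gene was called where its limma p, adjusted by the Benjamini-Hochberg method over the whole table, was under 0.05 and its difference was 2-fold or more. By this rule 9 of 9 were called higher in limma, against 15.4% of all genes, and the median log2 difference was 3.36, against 0.01 over all genes. The 9 genes covered different shares of the log2 distance from MEFs to iPS cells in the other groups. GFP+ cells stood at a median of 84.0% of it, with a range of 78.9% for Cdc20 to 95.1% for Cenpe, and day 3 SSEA1+ cells at 71.4%. RNA measures moved with the comparison: the 3′ minus 5′ log2 signal of Gapdh was 0.579 to 0.664 on the iPS arrays, against 0.867 and 0.94 on the MEF arrays, and that of Actb was 1.041 to 1.182, against 0.808 and 0.839. Their part in the differences was not tested. With every array centred on its own median, the median log2 difference of all genes was 0.14.

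Other genes of mitosis were counted by lists assembled by function, with differences on the log2 scale. Of 16 measured genes of the outer kinetochore and checkpoint, 11 rose and 0 fell (median 1.99), with Ska1, a microtubule-binding kinetochore gene, at 3.34. Of 12 regulators of mitotic entry and exit 11 rose and 0 fell (median 2.27), with the transcription factor gene Mybl2 at 4.95. All 7 mitotic kinesin genes rose (median 2.89), with Kif18a at 3.71, and so did all 6 genes of the chromosomal passenger complex and of Aurora A partners (median 2.20), with Hmmr at 3.11. Of 14 genes of the anaphase-promoting complex and its partners 3 rose and 0 fell, and the median was 0.21. The ubiquitin-conjugating enzyme gene Ube2c was the largest of them at 2.54, and the core subunit gene Cdc16 had the most negative difference, -0.59. Over all genes 15.3% were called lower. Of 12 inner centromere genes 8 rose and 2 fell, with Cenpa, the centromeric histone gene, at 3.32 and Cenpb at -1.31. DNA replication genes rose in 17 of 18 cases (median 2.82), with Mcm5 at 4.09, whereas CDK inhibitor genes fell in 4 of 7 cases and rose in 0, with Cdkn2b at -3.89. Among paralogues of the kinases Aurkc rose by 3.32 and Plk4 by 1.86, Plk2 fell by 1.47, and Plk3, at 0.52, was not called.

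**Figure D2:**
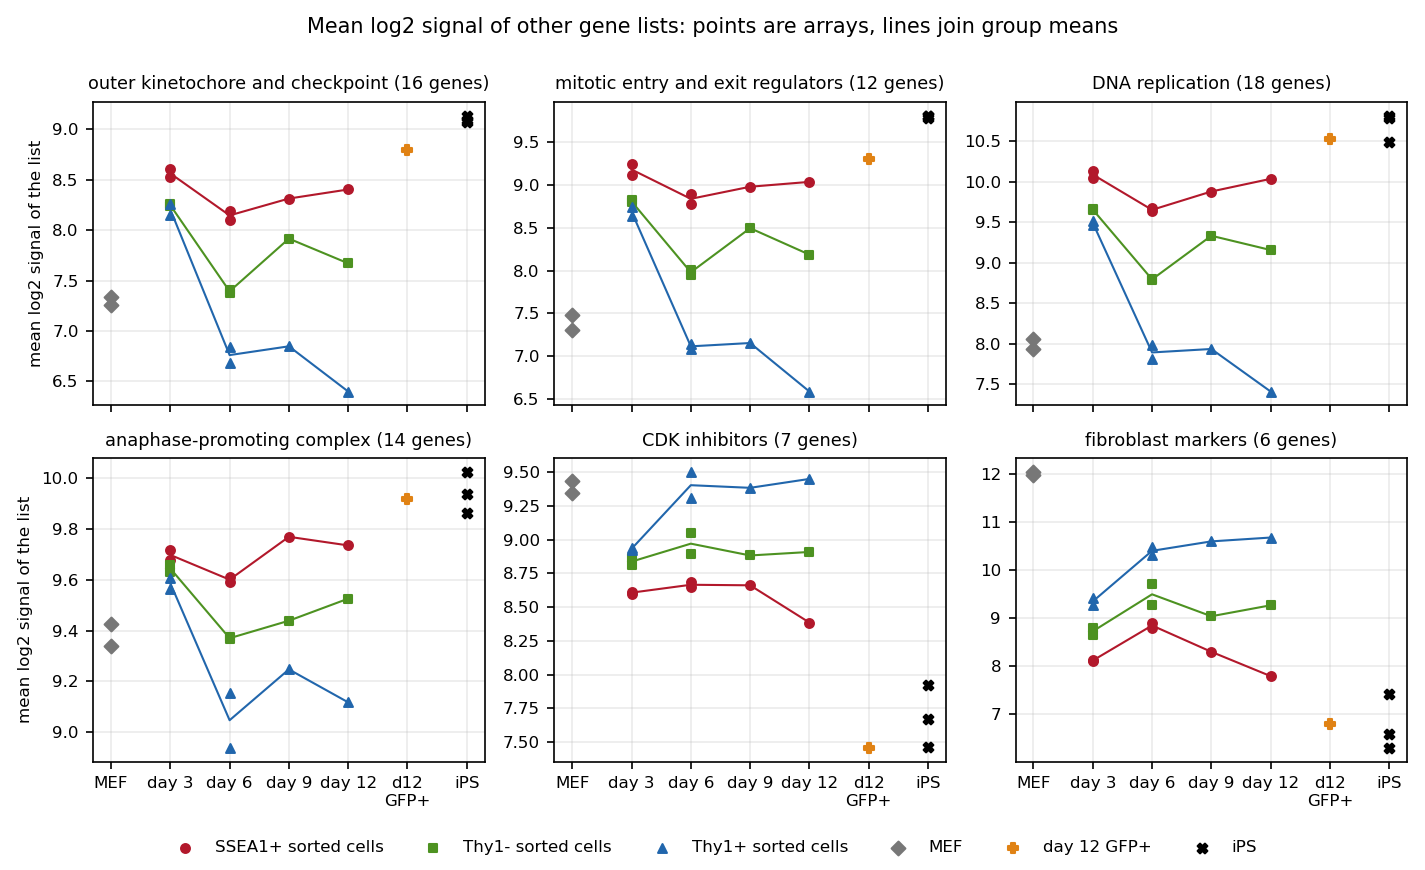
Mean log2 signal of other gene lists (y axis) by group (x axis), with a point for each of the 24 arrays and lines joining group means. The checkpoint, mitotic and DNA replication lists have their highest group mean in iPS cells. In the DNA replication list iPS array 1-3 (10.486) is below the day 12 GFP+ array (10.529). The anaphase-promoting complex list lies between 8.94 and 10.03 on all arrays, and the fibroblast list is highest in MEFs.

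On day 3 all 9 genes were higher than in MEFs in each of the 3 sorted fractions. In SSEA1+ cells Cdc20 was 6.85-fold higher (log2 difference 2.78, SE 0.14, adjusted p = 3.20e-09) and Plk1, the smallest, 3.90-fold (1.96, SE 0.14, adjusted p = 8.67e-08). In Thy1- cells Cdc20 was 5.30-fold higher and Plk1 3.00-fold. In Thy1+ cells, which had not lost the fibroblast marker, Cdc20 was 4.51-fold higher (2.17, SE 0.14, adjusted p = 6.33e-08) and Plk1 2.84-fold (1.51, SE 0.14, adjusted p = 2.01e-06). Cdc20 had the largest and Plk1 the smallest rise in all 3 fractions. In limma 9 of 9 were called higher in SSEA1+ cells, against 7.33% of all genes, 9 of 9 in Thy1- cells, against 5.72%, and 9 of 9 in Thy1+ cells, against 5.27%. The 3 comparisons share their MEF arrays. The spread of Zwilch in the fit was the widest of the 9 (SE 0.44), and its calls in Thy1- cells (adjusted p = 0.00989) and Thy1+ cells (adjusted p = 0.0157) were lost when any 1 of the 4 arrays compared was left out, with adjusted p of 0.0521 to 0.0895. With the day 6 Thy1+ M2 array out of the fit the adjusted p of Zwilch was 4.53e-08 in Thy1- cells and 9.49e-08 in Thy1+ cells. Of the other lists, all 18 DNA replication genes and all 7 mitotic kinesin genes rose in day 3 Thy1+ cells, as did 9 of 16 outer kinetochore and checkpoint genes and 2 of 14 anaphase-promoting complex genes.

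Day 3 cells also differed from MEFs in their RNA controls. The mean log2 signal of the 18S ribosomal RNA control probe sets was 7.20 to 7.71 on the day 3 arrays, against 9.26 and 9.04 in MEFs, and its part in the rise was not tested. Markers of fibroblasts moved as well, their mean being 8.10 and 8.12 in day 3 SSEA1+ cells and 9.28 and 9.41 in day 3 Thy1+ cells, against 11.98 and 12.04 in MEFs. Between SSEA1+ and Thy1+ cells of day 3 the differences of the 9 genes were small. All 9 were higher in SSEA1+ cells, by 0.44 for Ttk to 0.63 for Aurka on the log2 scale. None reached the 2-fold minimum, so 0 of 9 were called in limma, against 0.313% of all genes called higher. Aurka (adjusted p = 0.0405) and Cdc20 (adjusted p = 0.0297) had an adjusted p under 0.05.

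From day 3 to day 6 the 9 genes changed by different amounts in the 3 fractions. The difference between these changes was not tested for this step. In Thy1+ cells all 9 genes fell, Cenpe by 12.4-fold (log2 difference -3.63, SE 0.26, adjusted p = 4.85e-07), Bub1 by 9.07-fold (-3.18, SE 0.16, adjusted p = 4.46e-08) and Aurkb, the least, by 4.51-fold (-2.17, SE 0.19, adjusted p = 2.41e-06). In Thy1- cells 8 of 9 fell, with Aurka at -1.52, Plk1 at -1.51 and Bub1 at -1.35, and Zwilch at -0.83 was not called. In SSEA1+ cells the differences were all negative, from -0.33 for Bub1b to -0.87 for Aurka, and 0 of 9 were called. Members called lower thus numbered 9 of 9 in Thy1+ cells, against 4.57% of all genes, 8 of 9 in Thy1- cells, against 1.19%, and 0 of 9 in SSEA1+ cells, against 0.356%. In SSEA1+ cells Aurka (adjusted p = 0.00557) and Plk1 (adjusted p = 0.0224) missed the call by their size alone. The median log2 differences were -2.45 in Thy1+ cells, -1.12 in Thy1- cells and -0.48 in SSEA1+ cells, against 0.07, 0.02 and -0.02 over all genes.

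Fibroblast markers moved with this step. Their mean was 10.32 and 10.48 in day 6 Thy1+ cells, against 9.28 and 9.41 on day 3. In Thy1- cells it was 9.71 and 9.27 on day 6, against 8.65 and 8.79 on day 3, and in SSEA1+ cells 8.90 and 8.79, against 8.10 and 8.12. Their part in the lower levels was not tested.

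The day 6 step rests in part on single arrays. Without the day 6 Thy1+ M2 array all 9 genes were still called lower in Thy1+ cells, but Zwilch had a log2 difference of -1.99 in place of -3.10, and without M3 of that pair it had -4.215. In Thy1- cells several differences lay near the 2-fold limit, Bub1b at -1.01 among them. The count of 8 there became 5 without the day 3 Thy1- M3 array and 5 without the day 6 Thy1- M2 array, and the calls of Ttk (adjusted p = 0.0118) and Cenpe (adjusted p = 0.0163) were lost without any 1 of the 4 arrays, at adjusted p of 0.0546 to 0.116. The SEs of Ttk and Cenpe took in the day 6 Thy1+ pair (SD 0.74 and 0.704), which is not among those 4 arrays. In Thy1- cells the SD was 0.161 for Ttk and 0.056 for Cenpe on day 3, and 0.104 and 0.045 on day 6. The dim second probe set of Bub1 had a difference of 0.05 in SSEA1+ cells, opposite to the first. In Thy1+ cells it had -0.76, where the first had -3.18. With the mean of both the Bub1 difference in Thy1- cells was -0.94 and no longer called. With only the compared groups in the fit, Ttk (adjusted p = 0.0531) and Zwilch (adjusted p = 0.158) were not called in Thy1+ cells. Of the other lists, 16 of 18 DNA replication genes fell in Thy1+ cells, 5 of 18 in Thy1- cells and 2 of 18 in SSEA1+ cells. Mitotic kinesin genes fell in 7 of 7, 6 of 7 and 0 of 7 cases in these fractions, and outer kinetochore and checkpoint genes in 9 of 16, 8 of 16 and 0 of 16. Thy1 transcript differed between the day 6 Thy1- arrays, at 10.46 on M2 and 9.61 on M3, while Bub1 had 8.28 and 8.40 on them.

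**Figure D3:**
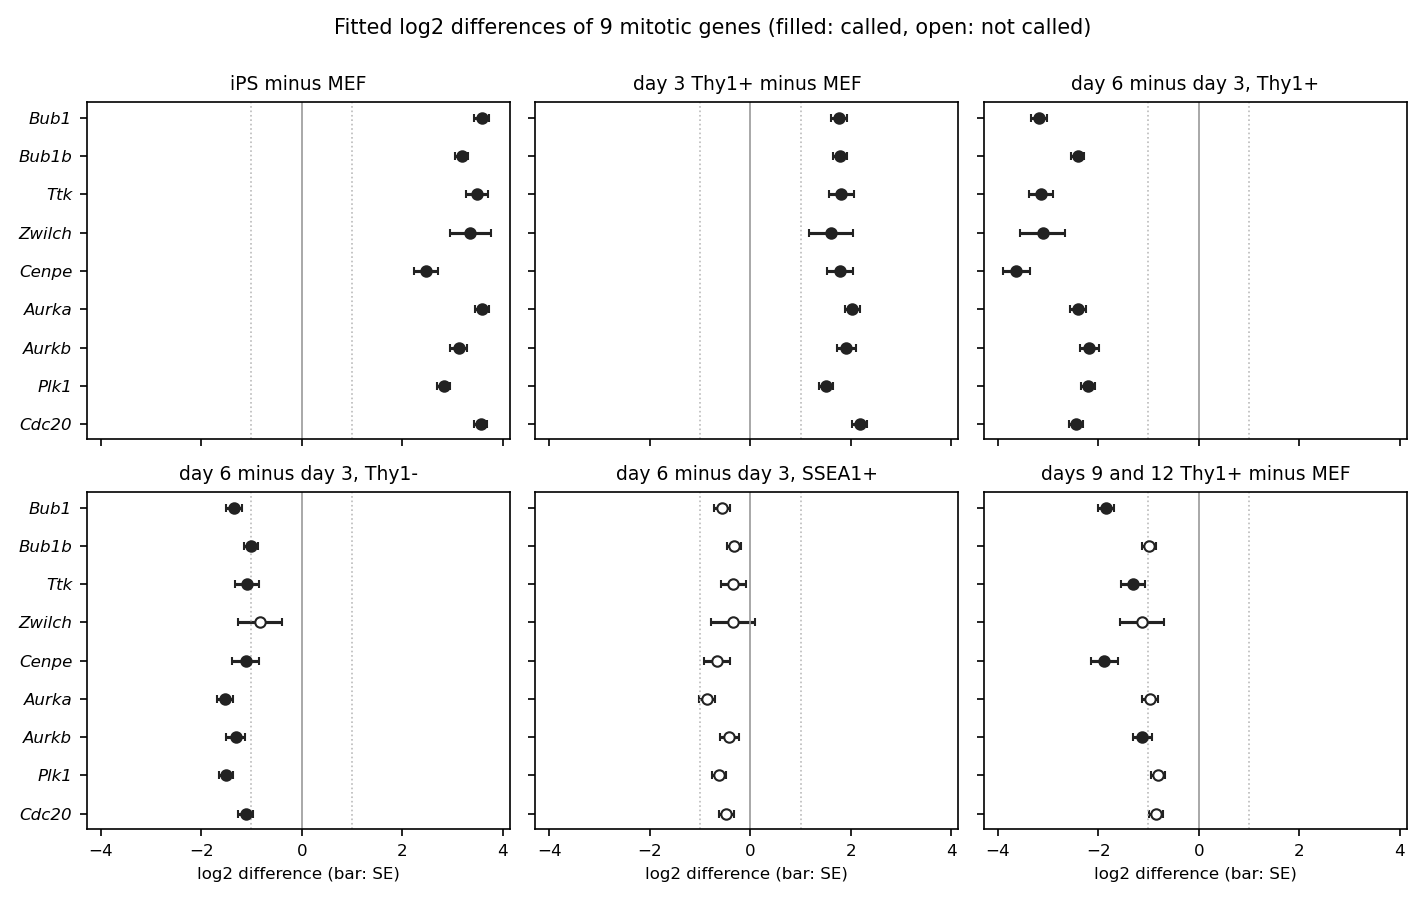
Log2 differences fitted by limma (x axis, bars are standard errors) of the 9 genes (y axis) in 6 comparisons, with dotted lines at 2-fold. Filled points were called and open points were not. From day 3 to day 6 all differences are negative, and 9 genes were called lower in Thy1+ cells, 8 in Thy1- cells and 0 in SSEA1+ cells.

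Days 9 and 12 were then set against day 6. In SSEA1+ cells, with days 9 and 12 averaged, all 9 genes were above day 6, by 0.16 for Cenpe to 0.68 for Aurka, and 0 were called in limma, against 1.1% of all genes called higher. Bub1b, Aurka and Plk1 had an adjusted p of 0.0403, 0.0196 and 0.0426 there. In Thy1- cells all 9 were also above day 6, by 0.29 for Cenpe to 0.75 for Bub1 (adjusted p = 0.0197). There 0 were called, against 1.02% of all genes. In every gene the day 9 Thy1- array was above the day 12 array, but each was a single array. The Thy1+ cells had differences of both signs, from -0.86 for Aurkb (adjusted p = 0.0467) to 0.37 for Zwilch. There 0 were called, against 0.169% of all genes called lower and 0.313% called higher. Without the day 6 Thy1+ M2 array Zwilch stood at -0.74 in place of 0.37 and Ttk at -0.50 in place of 0.02. The sign of both rested on that array. The day 12 Thy1+ array was below the day 9 array in all 9 genes, again with a single array each. The second Bub1 probe set had -0.27 in SSEA1+ cells, opposite to the first.

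Late Thy1+ cells were set against the MEFs from which the cultures began. All 9 genes lay lower in Thy1+ cells of days 9 and 12, by a median log2 difference of -1.13, against 0.04 over all genes. The genes called lower were 4 of 9, against 4.56% of all genes. They were Cenpe at -1.88 (3.67-fold lower, SE 0.26, adjusted p = 0.000119), Bub1 at -1.84 (SE 0.16, adjusted p = 1.15e-06), Ttk at -1.30 and Aurkb at -1.13. Bub1b, Aurka, Cdc20 and Plk1 had adjusted p of 0.000106 to 0.000692 with differences of -0.996 to -0.815, under 2-fold, and Zwilch at -1.13 had an adjusted p of 0.0879. The pooled spread of Zwilch took in the day 6 Thy1+ pair (SD 1.57), which is in neither group compared. Zwilch gained a call in 2 alternative settings. The second Bub1 probe set, at 0.16, did not follow the first, and with the mean of both the Bub1 difference was -0.84 and no longer called. Fibroblast markers averaged 10.59 and 10.67 on these Thy1+ arrays, against 11.98 and 12.04 on the MEF arrays, and the 18S control signal was 7.22 on day 9 and 9.25 on day 12, against 9.26 and 9.04 in MEFs. The 3′ to 5′ difference of Gapdh was 0.98 on day 9 and 1.11 on day 12, against 0.867 and 0.94 in MEFs. The part of these measures in the lower levels was not tested. Of the other lists, 5 of 7 mitotic kinesin genes and 5 of 16 outer kinetochore and checkpoint genes were lower in late Thy1+ cells, and 2 of 18 DNA replication genes.

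The fractions were then compared with each other. On day 6 all 9 genes were higher in SSEA1+ cells than in Thy1+ cells, from 2.03 for Plk1 to 3.48 for Cenpe on the log2 scale, and 9 of 9 were called, against 5.89% of all genes. Zwilch had 3.36 there, 2.25 without the Thy1+ M2 array and 4.47 without M3, and it was not called with only the compared groups in the fit (adjusted p = 0.0815). On days 9 and 12 the difference was 2.68 for Plk1 to 3.89 for Bub1 (adjusted p = 9.90e-10), again with 9 of 9 called, against 7.17%. The second Bub1 probe set had 1.42 there. Over the 4 days with equal weight, SSEA1+ cells exceeded Thy1+ cells by a median of 2.53, with 9 of 9 called, against 4.32%. Thy1- cells exceeded Thy1+ cells in 8 of 9 genes, against 1.73% of all genes called, from 1.45 for Aurka to 2.06 for Cenpe, and Plk1 at 0.90 was under 2-fold. SSEA1+ cells exceeded Thy1- cells in Plk1 alone by the 2-fold rule (1.06, SE 0.09, adjusted p = 3.96e-06), against 0.246% of all genes. All 9 had an adjusted p under 0.05, that of Zwilch being 0.0498, and differences of 0.77 to 1.06. The share of all genes at that p without the fold limit was not counted. In a fit with additive terms for day and fraction the Plk1 difference was 0.98, and 0 of 9 were called.

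The change over time differed between SSEA1+ and Thy1+ cells. From day 3 to days 9 and 12 Bub1 changed by -0.17 in SSEA1+ cells and by -3.61 in Thy1+ cells, a difference of 3.44 between the changes (SE 0.22, adjusted p = 6.95e-07). The dim second probe set of Bub1 had a smaller difference between the changes, 0.84, under 2-fold. Cdc20 changed by -0.15 in SSEA1+ cells and -3.02 in Thy1+ cells. Plk1 had the smallest difference between the fractions, 2.23 (SE 0.20, adjusted p = 7.91e-06). All 9 were called in this interaction test of limma, against 3.87% of all genes.

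Cells that had gained GFP by day 12 were set against day 12 SSEA1+ cells, 1 array against 1. The p-values assume that these lone arrays vary like the replicated groups, and the differences have no replicate check of their own. All 9 genes were higher in the GFP+ array, by a median of 0.53, and Bub1 alone was called (1.03, SE 0.22, adjusted p = 0.00832, and 0.00157 without the day 6 Thy1+ M2 array in the fit), against 2.46% of all genes. Over all genes 290 were higher and 558 lower, and after subtraction of each array's median 389 and 478, when the median log2 difference of all genes was 0.13 in place of 0.03. Bub1 had 0.99 after quantile scaling, just under the 2-fold limit. iPS cells were above GFP+ cells by a median of 0.45, with 0 called in limma, against 3.99% of all genes called higher. Cdc20 had the largest difference there, 0.75 (adjusted p = 0.0062), and Aurka 0.63 (adjusted p = 0.0266). The iPS arrays overlapped the GFP+ array in Cenpe, and the second Bub1 probe set had -0.20, opposite to the first.

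iPS cells also stood above the first SSEA1+ cells. Against day 3 SSEA1+ cells Bub1 was higher by 1.36 (SE 0.14, adjusted p = 2.76e-06), Ttk by 1.24 (SE 0.22, adjusted p = 0.000367) and Zwilch by 1.15 (SE 0.40, adjusted p = 0.0331). These 3 of 9 were called, against 9.82% of all genes. Without the fold limit 8 had an adjusted p under 0.05, for which the share of all genes was not counted. The call of Zwilch was lost without any 1 of the 5 arrays compared. Its SE took in the spread of the day 6 Thy1+ pair (SD 1.57), which is not in this comparison. The SD of Zwilch was 0.053 in iPS cells and 0.11 in day 3 SSEA1+ cells. Cenpe differed by 0.18 (SE 0.24, adjusted p = 0.602), and its arrays overlapped. Of the log2 distance from MEFs to iPS cells, Cenpe had covered 92.9% on day 3 in SSEA1+ cells, and Bub1 62.1%.

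The 9 genes moved as a group over the 15 group means of the 24 arrays. Pearson's r between pairs of them ranged from 0.946 for Plk1 and Cenpe to 0.994 for Ttk and Zwilch over 36 pairs, with a median of 0.978. The points share arrays and normalization, and the values are given as a description. The genes that followed the mean of the 9 most closely, leaving the 9 aside, were Ncapg (r = 0.9988) and Ncapd2 (0.9969), which encode subunits of condensin, Sgo1 (0.9976), which encodes a protector of centromeric cohesion, Spag5 (0.9961), which encodes a spindle-associated protein, and Kif22 (0.9961), a kinesin gene. Sgo1 and Kif22 also belong to the lists above. In Ncapg the mean log2 signal was 12.03 in iPS cells and 7.51 in day 12 Thy1+ cells, against 8.94 in MEFs. This is the order of the 9 genes, but Ncapg was picked by its r to them, so it is not a separate result.

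In the separate experiment day 6 SSEA1+ cells were split by EpCAM, an epithelial surface protein. Epcam itself was higher in the EpCAM+ cells, with log2 signals of 9.95 and 9.62, against 6.80 and 6.89 in the EpCAM- cells. Aurka had 10.01 and 10.04 in EpCAM+ cells, against 9.48 and 9.54 in EpCAM- cells. Plk1 had 10.11 and 10.09, against 9.62 and 9.34. The fractions did not overlap in either gene, but the share of all genes without overlap was not counted. Bub1b had 9.22 and 9.30 in EpCAM+ cells, against 9.22 and 8.89 in EpCAM- cells, and overlapped. All 9 genes were higher in EpCAM+ cells, from 0.10 for Cenpe to 0.62 for Plk1 (SE 0.11, adjusted p = 0.0534), and 0 of 9 were called in limma, against 0.484% of all genes called higher. Aurka, at 0.52 (SE 0.08, adjusted p = 0.037), was under 2-fold. The median log2 difference was 0.35, against 0.02 over all genes. Cdc20 was read by another probe set on this design, and its probe set of the 24 arrays had the same direction. The mean 18S control signal was 10.74 and 10.49 in EpCAM+ cells, against 12.32 and 11.22 in EpCAM- cells, and the 3′ to 5′ difference of Gapdh was 0.726 and 0.772, against 0.624 and 0.309. The mean of 8 pluripotency markers was 6.53 and 6.87 in EpCAM+ cells, against 5.07 and 5.14 in EpCAM- cells, and that of 7 epithelial markers 7.78 and 7.56, against 6.14 and 5.90. The part of these measures in the differences was not tested. The 9 genes' levels in this experiment cannot be set against the 24 arrays, which were normalized separately and in another design.

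**Figure D4:**
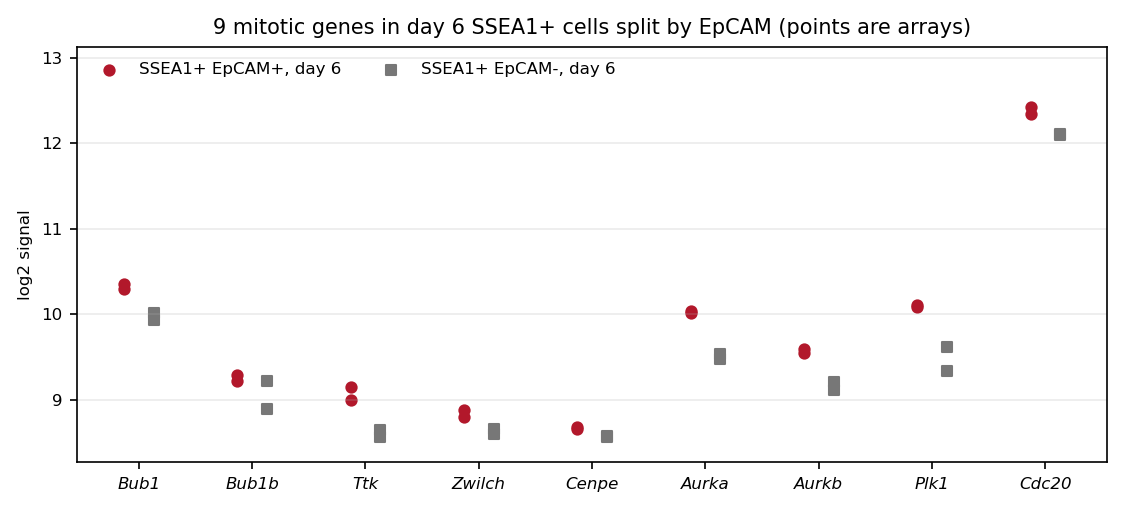
Log2 signal (y axis) of the 9 genes (x axis) on the 4 arrays of day 6 SSEA1+ cells split by EpCAM, with EpCAM+ cells left of EpCAM- cells and a point for each array. The EpCAM+ and EpCAM- arrays overlap in Bub1b. The share of all genes that overlap was not counted.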

How the data were processed

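Gene expression was measured on 24 arrays of one design and on 4 arrays of another. The values are log2 signals as the authors deposited them, normalized with RMA per the submitters' processing notes (version not given in the sources used here), separately for each design, so tests stayed within a table. Probe sets with a single gene symbol were kept, 18003 of 22716 and 20393 of 22690, and a gene was read by its probe set of highest mean signal.

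A linear model with 15 group means was fitted with limma 3.58.1 (R 4.3.3) to the 24 arrays, with 9 residual and 4.68 prior degrees of freedom, and another to the 4 arrays, with 2 and 3.99. Groups of 1 array took the pooled spread. In 22 comparisons p-values were adjusted over all genes by the Benjamini-Hochberg method, and calls needed an adjusted p under 0.05 and a 2-fold difference. The 9 genes are always named. Of other lists, the genes of largest positive or negative difference between iPS cells and MEFs and the kinase paralogues are named, with the 5 genes most alike in profile. Members and lists were chosen with earlier results of these data known. Replicate names were not used to pair samples in the main fit, and what they stand for is not stated. Alternatives covered the fold minimum, dim genes, scaling, probe set summary, variance prior, replicate block, arrays left out and arrays in the fit. Python 3.11.15, pandas 2.3.3, numpy 2.4.6 and matplotlib 3.10.9 were used for summaries and figures.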

Additional observations from a re-analysis of the deposited data

Results flagged for a closer look

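The change from day 3 to days 9 and 12 differed between SSEA1+ and Thy1+ cells in all 9 genes by the interaction test of limma. The difference between the log2 changes, SSEA1+ minus Thy1+, was 3.436 for Bub1, 2.973 for Bub1b, 3.163 for Ttk and 2.662 for Zwilch among the checkpoint genes. It was 3.167 for Cenpe and 2.874 for Cdc20, and among the kinases 2.814 for Aurka, 2.857 for Aurkb and 2.227 for Plk1. Zwilch had the highest adjusted p of the 9, 0.0117, and Bub1 the lowest, 6.95e-07. The dim second probe set of Bub1 had a difference of 0.836. The changes lay between -0.495 (Cenpe) and 0.198 (Bub1b) in SSEA1+ cells and between -3.662 (Cenpe) and -2.323 (Plk1) in Thy1+ cells. Days 9 and 12 held 1 array per fraction and day.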

How the results depend on the processing

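Of 2538 gene values under alternative settings, 2456 kept their direction and their side of the threshold, 43 gained a call, 30 lost one and 9 changed sign. With no minimum fold the called members numbered 2 for day 6 against day 3 in SSEA1+ cells, 3, 1 and 1 for days 9 and 12 against day 6 in SSEA1+, Thy1- and Thy1+ cells, 8 for late Thy1+ cells against MEFs, 2 for SSEA1+ against Thy1+ cells on day 3, 9 for SSEA1+ against Thy1- cells, 2 for iPS against GFP+ cells, 8 for iPS against day 3 SSEA1+ cells and 1 for EpCAM. The share of all genes called without a fold minimum was not counted, so these numbers have no background beside them. SSEA1+ against Thy1- cells gave 2 after median scaling and 0 in the additive fit, and GFP+ against SSEA1+ cells gave 0 after quantile scaling. Leaving out 1 array gave 0 to 1 for day 6 against day 3 in SSEA1+ cells, 5 to 6 in Thy1- cells, 0 to 2 for days 9 and 12 against day 6 in Thy1+ cells (2 without day 6 Thy1+ M3), 4 to 5 for late Thy1+ cells against MEFs and 2 to 4 for iPS against day 3 SSEA1+ cells. The changes of sign follow. For days 9 and 12 against day 6, Cenpe in SSEA1+ cells ranged from -0.011 to 0.337 with 1 array left out. In Thy1+ cells Ttk was -0.018 after quantile scaling, Cenpe 0.022 with the replicate block, and with 1 array left out Ttk ranged from -0.501 to 0.545, Cenpe from -0.531 to 0.464 and Zwilch from -0.744 to 1.478. With day 6 Thy1+ M2 kept out of every fit, Ttk was -0.501 and Zwilch -0.744. Cenpe in iPS against GFP+ cells ranged from -0.05 to 0.225. Beyond arrays left out and the fold minimum, the cause was not tested. Deviations of same-named arrays correlated at -0.207 to 0.214 over 21 pairs of groups (median -0.013, 5 over 0.1), and the replicate block changed a count only for late Thy1+ cells against MEFs, to 5. Leaving out an array was not possible where each group held 1.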
